A study of Homo sapiens with 6 samples.

Results

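The 10 genes described here write or maintain repressive marks on histone H3 and on DNA. They are EZH2, EZH1, SUZ12 and EED of Polycomb repressive complex 2 (PRC2), the DNA methyltransferases DNMT1, DNMT3A and DNMT3B, their partners UHRF1 and HELLS, and the histone H3 lysine 9 methyltransferase SUV39H1. They were chosen by name from 55765 gene symbols, and all 10 passed the filter on low counts that left 16835 genes to test. The cells were C4-2, a castration-resistant human prostate cancer line derived from LNCaP. The solvent DMSO was given in 3 samples and the androgen R1881 (methyltrienolone) at 1 nM, a supraphysiological androgen level (SAL), in the other 3, both for 72 h in DMEM. The model is thus a single cell line in culture at 1 dose and 1 time of the hormone. Each group has replicates numbered 1 to 3, and same-numbered libraries were treated as pairs.

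PRC2 places methyl groups on lysine 27 of histone H3 (H3K27) and so keeps genes silent. EZH2 or its paralog EZH1 is the catalytic subunit, SUZ12 holds the complex together and EED recognises the mark already present. When DNA is copied, UHRF1 recognises CpG sites methylated on the old strand only and brings in DNMT1, which methylates the new strand, and the chromatin remodeler HELLS opens compacted DNA for this step. DNMT3A and DNMT3B methylate sites that carried no mark before. SUV39H1 trimethylates lysine 9 of histone H3 (H3K9) in heterochromatin. Much of this machinery is made in dividing cells, where the E2F transcription factors drive genes needed for DNA synthesis, and EZH2 is well known for its high level in advanced prostate cancer.

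Because several of these genes are known to be driven by E2F factors, their promoters were searched for E2F-type letters, and the stretches that hold them are shown. The windows are RefSeq promoters, 250 bases before to 50 after a transcription start, found for all 10 genes and placed by exact match on GRCh37, the assembly of hg19. Matches to TTTGGCGC, TTTCCCGC, TTTGCCGC or TTTCGCGC on either strand are in capitals, in the gene's reading direction, so a match on the opposite strand appears as its reverse complement.
EZH2, chr7:148581354-148581422, minus strand: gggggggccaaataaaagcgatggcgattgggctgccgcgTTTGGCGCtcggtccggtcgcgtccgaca
EZH1, chr17:40897126-40897213, minus strand: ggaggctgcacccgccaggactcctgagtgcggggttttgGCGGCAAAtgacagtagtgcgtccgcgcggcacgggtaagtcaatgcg
SUZ12, chr17:30263797-30263884, plus strand: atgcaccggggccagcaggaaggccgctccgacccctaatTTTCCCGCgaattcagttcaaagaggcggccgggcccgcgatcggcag
DNMT1, chr19:10305600-10305671, minus strand: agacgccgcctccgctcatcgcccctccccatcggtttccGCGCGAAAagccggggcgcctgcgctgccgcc
UHRF1, chr19:4909459-4909542, plus strand: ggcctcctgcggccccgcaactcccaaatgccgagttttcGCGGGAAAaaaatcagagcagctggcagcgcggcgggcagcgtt
HELLS, chr10:96305497-96305574, plus strand: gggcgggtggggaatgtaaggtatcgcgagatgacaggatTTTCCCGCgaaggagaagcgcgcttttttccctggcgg

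These letters occurred in a promoter window of 6 of the 10 genes (60.0%), against 3.99% of the 27305 genes in the RefSeq table. The match of EZH2 begins 2 bases into the transcript, that of UHRF1 ends 7 bases before the start, and the HELLS match shown ends at the last base before it. HELLS has another match at -76 to -69, and a further UHRF1 window, of a start downstream of the one shown, also holds one. Counted from the start, the match of SUZ12 lies at -189 to -182 and that of EZH1 at -115 to -108. No window of EED, DNMT3A, DNMT3B or SUV39H1 holds these letters, which says only that they are not in these windows. CCAAT, the NF-Y box, was found on either strand in windows of EZH2, SUZ12, EED, DNMT3B, UHRF1, HELLS and SUV39H1 (all genes, 39.7%), with 4 copies in that of EZH2, none overlapping the E2F-type match. TTTGAA, the cell-cycle homology region, was found for SUZ12 and DNMT3A (all genes, 18.2%). These matches describe sequence and were not tested for binding.

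The libraries held 7864471 to 12532355 reads on genes, of which rRNA genes, removed as in the methods of the study, took 11.9% to 27.8%. The 10 markers of luminal prostate epithelium include KLK3, TMPRSS2 and KRT8. They summed to 3926 to 6749 CPM (counts scaled to a common library size) in DMSO and 7163 to 12170 in SAL. Of the 10, 7 were called higher in SAL (all genes, 11.5%) and none lower (all genes, 9.37%). Of 9 markers of basal, stromal, immune and endothelial cells, KRT5, COL1A2 and PTPRC were at 0 in all libraries, and the 9 together summed to 2.97 to 14.4 CPM in DMSO and 3.07 to 13.9 in SAL, with neither of the 2 tested called. The replicates of a group stood far apart. Over all genes tested, however, libraries with the same number deviated together from their group means, with correlations of 0.89 for replicate 1, 0.86 for replicate 2 and 0.74 for replicate 3, and the replicate number was kept as a block. For the 10 genes this spread followed the base composition of their transcripts. The 4 genes with a transcript GC content of 33.0% to 40.8% (EED, SUZ12, HELLS and EZH2) were lower in replicate 2 than in replicate 1 in both conditions, with log2 CPM differences from -0.43 (SUZ12, DMSO) to -1.46 (HELLS, SAL). The 6 genes with 50.6% to 57.5% were higher in replicate 2, by 0.52 (EZH1, SAL) to 2.09 (DNMT3A, DMSO). The part of base composition in these levels was not tested.

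**Figure D1:**
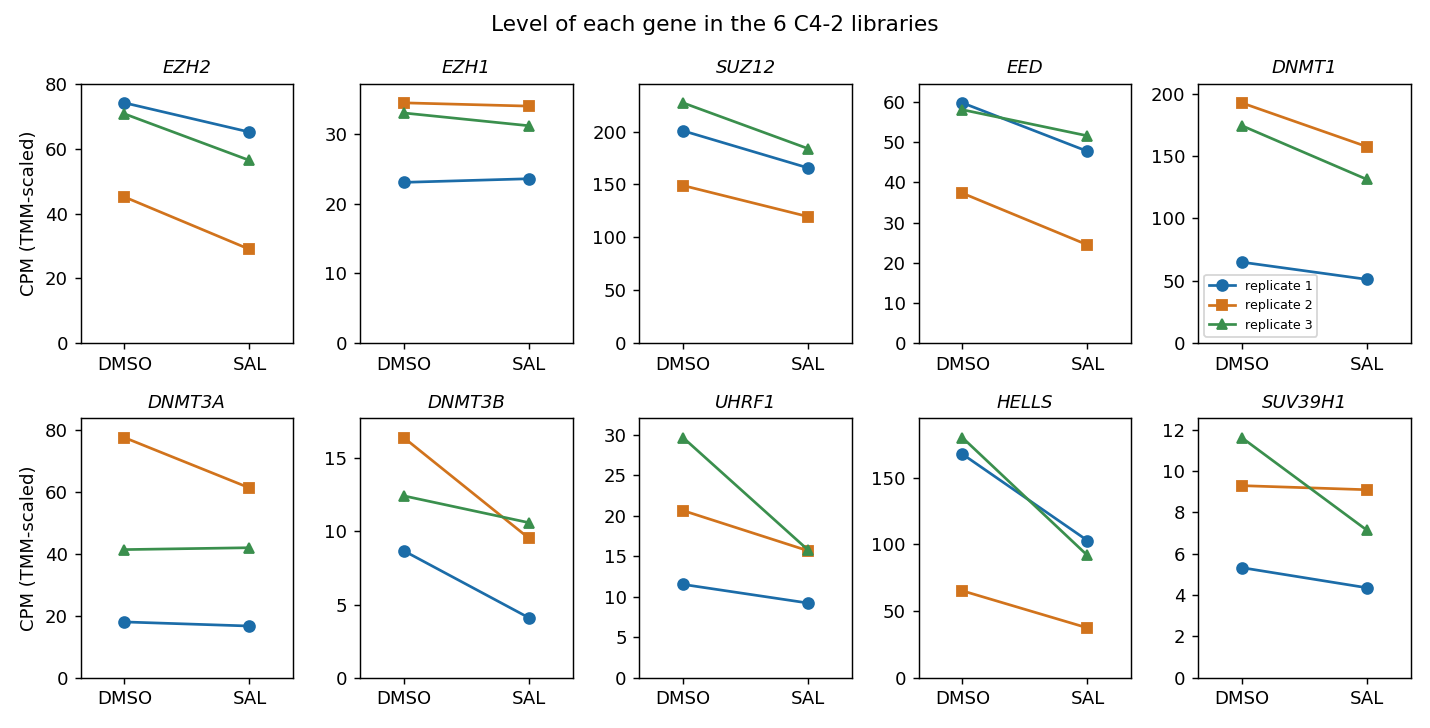
Level of each of the 10 genes (CPM on TMM-scaled library sizes, axis from 0) in DMSO and SAL, with a line for each same-numbered pair of libraries. HELLS falls in every pair from 65.2 to 180 CPM in DMSO to 37.4 to 103 in SAL, whereas the lines of EZH1 are nearly flat, and the spread between replicates is as wide as or wider than most changes.

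Under SAL, 7 of the 10 genes were down-regulated and none was up-regulated. HELLS fell most, followed by DNMT3B and UHRF1, then by EZH2, EED, DNMT1 and SUZ12 with changes of similar size. The share called lower, 70.0%, stands against 9.37% of all 16835 genes called lower by the same test (higher, 11.5%, either way, 20.8%), which was edgeR's quasi-likelihood test with the replicate block and Benjamini-Hochberg adjustment. The median log2 fold change of the 10 was -0.35, against -0.0011 over all genes. The 10 were chosen with earlier results of these data known, so the contrasts with all genes given here are descriptive. The SAL library was the lower of the pair in all 3 pairs for 8 of the 10 genes, against 25.3% of all genes. The 3 SAL levels lay wholly below the 3 DMSO levels for none of the 10 (all genes, 3.73%), because replicates differ more than treatments do. Fewer cells making a transcript and less transcript per cell cannot be told apart in such bulk RNA. Without the replicate block none was called with edgeR, and none had an unadjusted p under 0.05. With DESeq2, the tool of the study, and the block only HELLS and DNMT1 were called (all genes lower, 5.64%). All 7 had an unadjusted DESeq2 p under 0.05, as had 1744 of the 16835 genes in that direction. Those 7 were picked by edgeR on the same counts, so this is not separate evidence.

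**Figure D2:**
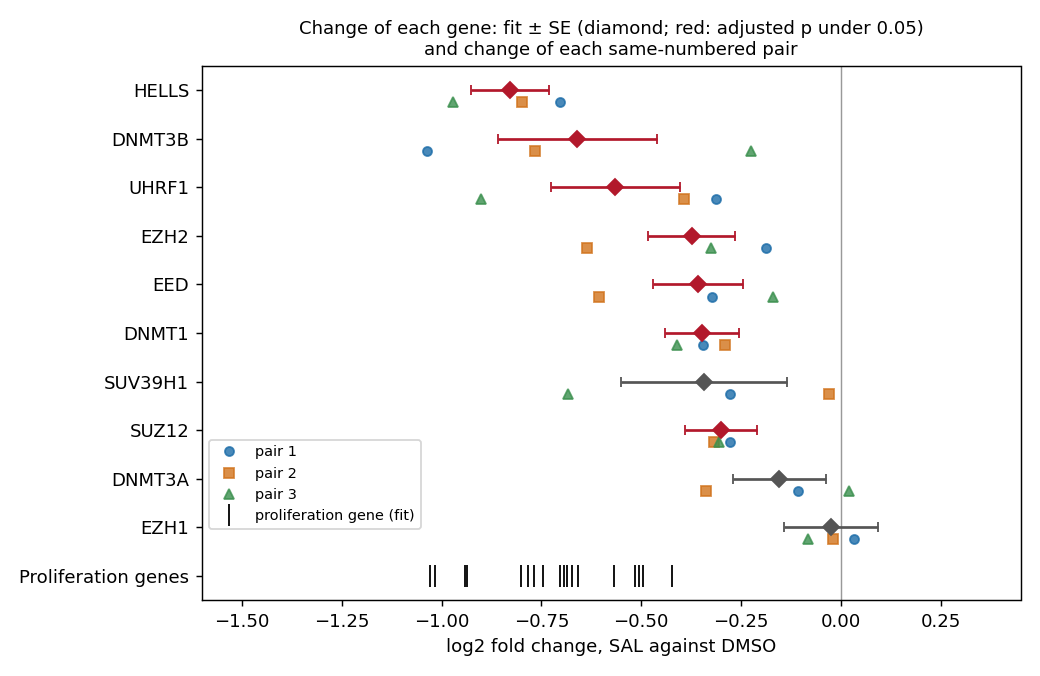
Log2 fold change of each gene (diamond with standard error, red where the adjusted p is under 0.05) with the change of each pair below it, and the fitted changes of 18 proliferation genes as ticks. HELLS, DNMT3B and UHRF1 lie among the proliferation genes, which run from -1.03 to -0.42. UHRF1 lies inside the upper edge by less than its standard error. The fitted values of the other 7 lie to the right of that range, those of EZH2, EED, DNMT1 and SUV39H1 by less than their standard errors.

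Among the PRC2 genes, the catalytic subunit EZH2 (chr7:148504349-148581413, minus strand, GRCh37) had levels of 74.2, 45.1 and 70.8 CPM in replicates 1 to 3 with DMSO, and of 65.2, 28.9 and 56.4 CPM with SAL. The groups overlapped, but every SAL library was below its own DMSO library. The mean went from 63.4 ± 15.9 to 50.2 ± 18.9 CPM (SD, n = 3). The log2 fold change was -0.37 (standard error 0.11, edgeR adjusted p = 0.0245), or 77.2% of the DMSO level. The pairs changed by -0.19, -0.64 and -0.33, the most in replicate 2, and without that replicate the change was -0.27 (edgeR adjusted p = 0.112). EZH2 was also not called without replicate 3 (edgeR adjusted p = 0.208).

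SUZ12 (chr17:30264026-30328057, plus strand), the scaffold of the complex and the most abundant of the 10 genes, measured 201, 149 and 227 CPM in DMSO and 166, 120 and 184 in SAL. Its pairs were the most alike of the called genes together with DNMT1, at -0.28, -0.32 and -0.30, and the log2 fold change was -0.30 (standard error 0.09, edgeR adjusted p = 0.0269). It was not called without replicate 3 (edgeR adjusted p = 0.356), where the change was also -0.30. EED (chr11:85912254-85989855, plus strand), the subunit that binds the finished mark, measured 59.8, 37.3 and 58.1 CPM in DMSO and 47.8, 24.4 and 51.6 in SAL. Its log2 fold change was -0.36 (standard error 0.11, edgeR adjusted p = 0.0355), with -0.32, -0.61 and -0.17 in the pairs, and it was not called without replicate 2 or without replicate 3 (edgeR adjusted p = 0.148 and adjusted p = 0.133). A recently annotated antisense gene shares 221 bases of EED exons, and the counting did not use strand.

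EZH1 (chr17:40852293-40897067, minus strand), the catalytic subunit known from resting and differentiated cells, measured 23.0, 34.5 and 33.0 CPM in DMSO and 23.6, 34.0 and 31.2 in SAL. DMSO averaged 30.2 ± 6.21 CPM and SAL 29.6 ± 5.39 (SD, n = 3). The log2 fold change was -0.02 (standard error 0.12, edgeR adjusted p = 0.913), with 2 pairs lower and 1 higher. The ratio of EZH2 to EZH1 counts, which needs no scaling between libraries, was lower in SAL in all 3 pairs. On the log2 scale it was 1.69, 0.39 and 1.10 in the DMSO libraries and 1.47, -0.23 and 0.86 in the SAL libraries, a paired difference of -0.36 ± 0.13 (standard error over 3 pairs). EZH1 counts thus exceeded EZH2 counts only in SAL replicate 2, though gene lengths differ and the ratio is not one of molecules. Transcript GC content also differs (EZH2 40.8%, EZH1 50.6%), and no ratio was corrected for it. Neither exact permutation test could pass 0.05. Over libraries p was 0.6 (smallest possible 0.1) and over sign flips of the pairs p was 0.25, the smallest they can give.

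Within PRC2, EZH2 kept close to EED. The log2 ratio of their counts was 0.31, 0.27 and 0.29 in DMSO and 0.45, 0.24 and 0.13 in SAL. The paired difference was -0.02 ± 0.09 (standard error over 3 pairs). Over libraries, which ignores the pairs, the two-sided exact permutation p was 0.8. The ratio of EZH2 to SUZ12 differed by -0.09 ± 0.12 within the pairs (two-sided exact permutation over libraries, p = 0.9), lower in 2 pairs and higher in 1. Leaving out 1 replicate turned the sign of both differences.

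Of the maintenance methylation genes, HELLS (chr10:96305086-96373662, plus strand), a remodeler also called LSH, measured 168, 65.2 and 180 CPM in DMSO and 103, 37.4 and 91.8 in SAL. Each SAL library was far below its DMSO partner, at -0.70, -0.80 and -0.97 in the pairs. The mean went from 138 ± 63.1 to 77.4 ± 35.1 CPM (SD, n = 3). The log2 fold change was -0.83 (standard error 0.10, edgeR adjusted p = 1.97e-05), or 56.3% of the DMSO level. HELLS was the only one of the 10 also called at an adjusted p under 0.01, and it stayed called without any 1 replicate, with -0.75 (edgeR adjusted p = 0.00930) without replicate 3. Another annotated gene shares 438 bases of its exons on the same strand.

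UHRF1 (chr19:4903092-4962165, plus strand), the reader of CpG sites methylated on the old strand, measured 11.5, 20.6 and 29.7 CPM in DMSO and 9.22, 15.7 and 15.8 in SAL. Its log2 fold change was -0.56 (standard error 0.16, edgeR adjusted p = 0.0216), with -0.31, -0.39 and -0.90 in the pairs. Replicate 3 had the largest change, and without it the value was -0.36 (edgeR adjusted p = 0.431). DNMT1 (chr19:10244018-10341962, minus strand), the maintenance methyltransferase itself, measured 64.9, 193 and 175 CPM in DMSO and 51.1, 158 and 131 in SAL, so that replicate 1 was far below the others in both conditions. Its pairs were nearly alike at -0.34, -0.29 and -0.41, and the log2 fold change was -0.35 (standard error 0.09, edgeR adjusted p = 0.0142), or 78.6% of the DMSO level. DNMT1 was called with DESeq2 as well (adjusted p = 0.0388) but not without replicate 3 (edgeR adjusted p = 0.317), and its exons share 83 bases with S1PR2.

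Relative to DNMT1, the counts of HELLS were lower with SAL in every pair, with log2 changes of -0.36, -0.51 and -0.56, a difference of -0.48 ± 0.06 (standard error over 3 pairs). The levels of this ratio ran from -1.56 to 1.37 over the DMSO libraries, wider than the change, and the exact permutation p was 0.7 over libraries and 0.25 over pairs, the smallest that 3 pairs allow. Transcript GC content is 39.5% for HELLS and 55.2% for DNMT1, and the ratio was not corrected for it. UHRF1 relative to DNMT1 differed by -0.19 ± 0.16 (two-sided exact permutation over libraries, p = 0.7), lower in 2 pairs.

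Among the de novo methyltransferases, DNMT3B (chr20:31350191-31397165, plus strand) measured 8.67, 16.4 and 12.4 CPM in DMSO and 4.10, 9.54 and 10.6 in SAL, from 70, 120 and 93 counts and 32, 87 and 86 counts. Its log2 fold change was -0.66 (standard error 0.20, edgeR adjusted p = 0.0277), or 63.3% of the DMSO level, and the pairs spread widely at -1.04, -0.77 and -0.22. It was not called without replicate 1 or without replicate 2 (edgeR adjusted p = 0.0504 and adjusted p = 0.136). DNMT3A, its paralog at chr2:25450724-25565459 (minus strand), measured 18.0, 77.4 and 41.3 CPM in DMSO and 16.6, 61.2 and 41.9 in SAL, a log2 fold change of -0.15 (standard error 0.12, edgeR adjusted p = 0.397). Its levels spread 4.31-fold among the DMSO libraries, more than those of any other of the 10. The log2 ratio of DNMT3B to DNMT3A was lower in all 3 pairs, at -0.97, -0.44 and -0.25, a difference of -0.56 ± 0.22 (two-sided exact permutation p = 0.3 over libraries and 0.25 over pairs, the smallest that 3 pairs allow). DNMT1 relative to DNMT3A differed by -0.21 ± 0.14 (two-sided exact permutation over libraries, p = 0.5).

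SUV39H1 (chrX:48553945-48567407, plus strand) had the fewest reads of the 10, with 43, 68 and 87 counts in DMSO and 34, 83 and 58 in SAL. This was 5.33, 9.30 and 11.6 CPM against 4.35, 9.10 and 7.15. The log2 fold change of -0.34 was about as large as that of DNMT1, but with a standard error of 0.21 it did not pass the test (edgeR adjusted p = 0.283). The pairs were -0.28, -0.03 and -0.68, all lower in SAL. Of its exons, 685 bases overlap an antisense gene, and the counting did not use strand, so strand could not separate the reads there. Relative to EZH2 its counts differed by 0.04 ± 0.29 on the log2 scale (two-sided exact permutation over libraries, p = 1), and by -0.24 without replicate 2.

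**Figure D3:**
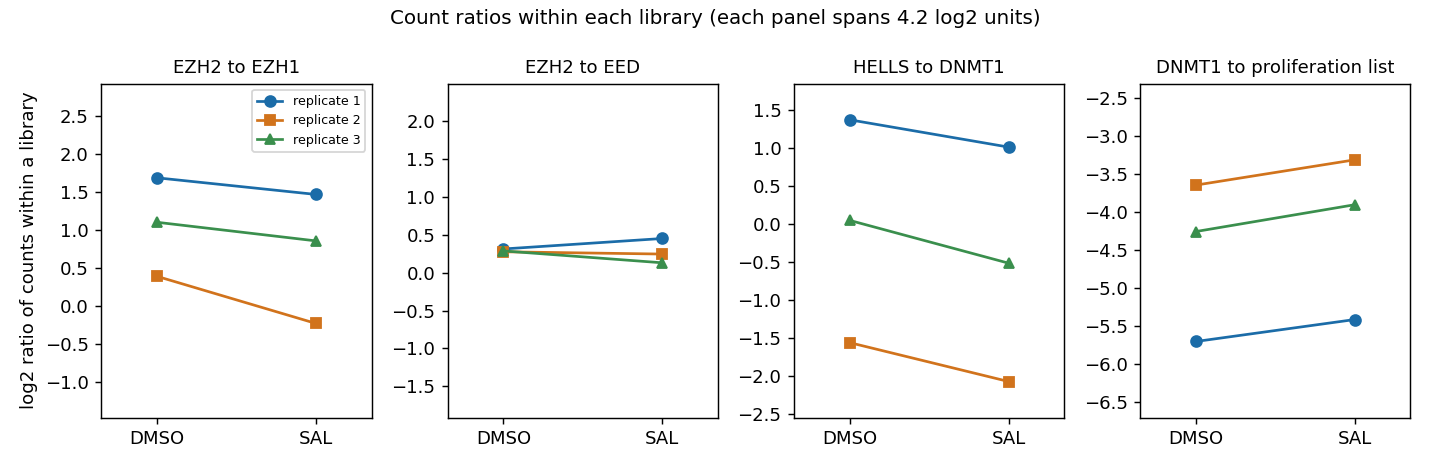
Log2 ratios of counts within each library for 4 gene pairs, with a line for each replicate number and the same span on each axis. EZH2 to EZH1 and HELLS to DNMT1 go down in each of the 3 pairs, EZH2 to EED stays between 0.13 and 0.45, and DNMT1 to the 18 proliferation genes goes up in each pair.

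Levels can be compared between genes only per exon length. In DMSO, SUZ12 led with 29.3 ± 6.08 CPM per kb of exon (SD, n = 3), well above the rest. HELLS (9.68 ± 4.44), DNMT1 (9.37 ± 4.50), EED (7.40 ± 1.79) and EZH2 (5.88 ± 1.48) followed, and the libraries of neighbours in this order overlapped. EZH1 (4.32 ± 0.89), UHRF1 (4.01 ± 1.76), DNMT3A (3.31 ± 2.17), SUV39H1 (2.71 ± 0.98) and DNMT3B (1.82 ± 0.56) were lowest, again with overlap between neighbours, also between EZH2 and EZH1. In SAL, HELLS was at 5.44 ± 2.47 CPM per kb, below DNMT1 (7.38 ± 3.61), and UHRF1 (2.64 ± 0.73) was below DNMT3A (2.90 ± 1.62), all within their spreads. Exon lengths come from a newer annotation than the one used for counting. With the longest transcript as the length instead, the order in DMSO was the same except that DNMT3A and UHRF1, at 4.79 and 4.78 CPM per kb, changed places.

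Set against proliferation, most of the genes had smaller fitted changes. A list of 18 proliferation genes, among them MKI67, PCNA and the MCM helicase genes, was called lower throughout (18 of 18, all genes 9.37%). Like the other lists, this list was chosen with earlier results of these data known. Its log2 fold changes ran from -1.03 to -0.42, with a median of -0.70. By fitted value only HELLS, DNMT3B and UHRF1 fell within that range, and EZH2, EED, DNMT1, SUV39H1, SUZ12, DNMT3A and EZH1 were above it. The upper edge is the value of MCM6, -0.42 (standard error 0.11). EZH2, EED, DNMT1 and SUV39H1 above that edge, and UHRF1 below it, lay within their own standard errors of it. The split is thus not resolved for them. The error of MCM6 comes on top, and the distance of the other genes from the edge was not tested. DNMT1 counts relative to the summed counts of the list were higher with SAL in each of the 3 pairs (log2 changes 0.29, 0.33 and 0.35), a difference of 0.33 ± 0.02 (standard error over 3 pairs). EZH2 relative to the list differed by 0.29 ± 0.15, higher in 2 pairs, and UHRF1 by 0.13 ± 0.14, also higher in 2 pairs. For DNMT1, EZH2 and UHRF1 in turn, the two-sided exact permutation p-values were 0.6, 0.4 and 0.7 over libraries, which ignores the pairs. Over sign flips of the pairs the exact p-values were 0.25, 0.5 and 0.5, where 0.25 is the smallest that 3 pairs can give, so neither test could pass 0.05. Over all 11 ratios compared, the adjusted p of the test over libraries was at least 0.962. E2F-type letters were found in the promoters of 7 of the 15 proliferation genes with a RefSeq window (46.7%). The part of the proliferation genes' fall in the changes of the 10 genes was not tested.

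The genes around these enzymes, in 10 companion lists, did not move in 1 direction. Of 85 tested, 11 were called lower (12.9%, all genes 9.37%) and 10 higher (11.8%, all genes 11.5%), shares near the background. Without replicate 3 edgeR called none lower and 1 higher, while 11 and 7 had an unadjusted p under 0.05. Of the 16992 genes tested in that fit, 1492 lower and 1797 higher had such a p. DESeq2 with the block called 9 lower and 3 higher.

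**Figure D4:**
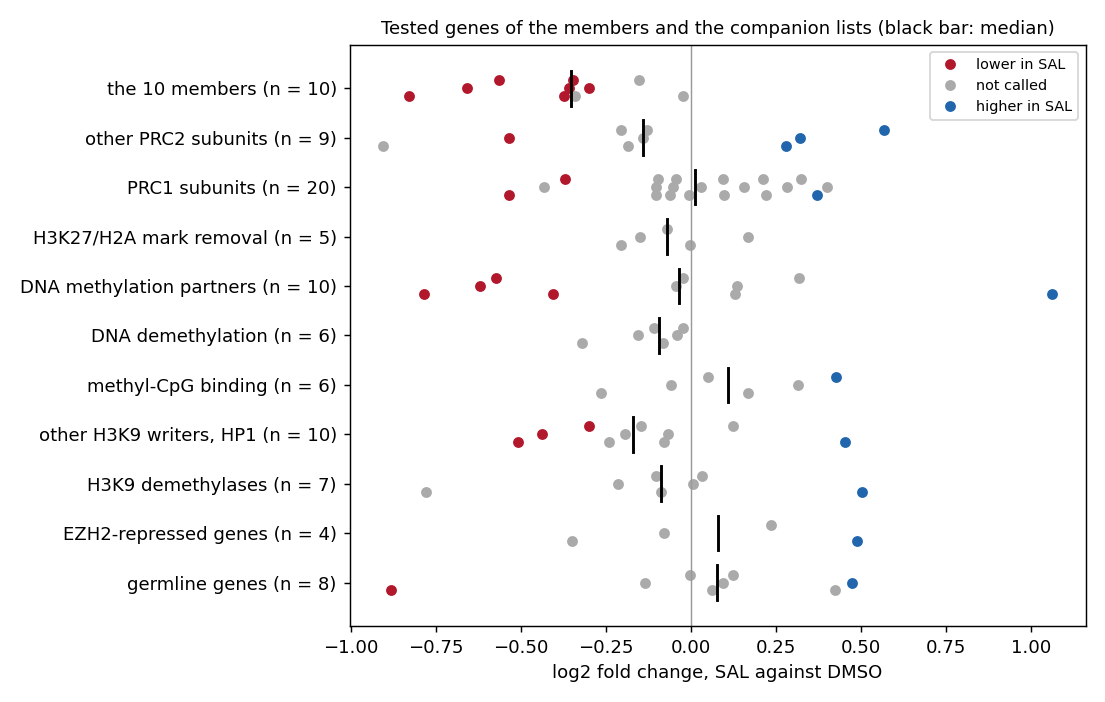
Log2 fold change of every tested gene of the 10 members and of each companion list, coloured by call at an adjusted p under 0.05, with the median as a black bar. The median of the 10 members is -0.35, whereas the medians of the companion lists lie between -0.17 and 0.11.

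Of the 9 other PRC2 subunits, 1 was called lower and 3 higher (all genes, 9.37% and 11.5%), with a median log2 fold change of -0.14. C17orf96 (now EPOP), which links PRC2 to elongin, fell by 0.53 on the log2 scale (edgeR adjusted p = 0.0331). LCOR, whose locus also encodes the accessory protein PALI1, PHF1, a Polycomb-like subunit, and the histone-binding RBBP7 rose by 0.32, 0.57 and 0.28 (edgeR adjusted p = 0.0321, adjusted p = 0.0377 and adjusted p = 0.0459). All 4 lost their calls with DESeq2 and the block. RBBP7 was the one of them whose SAL levels lay above all its DMSO levels, at 151 ± 11.8 against 125 ± 7.94 CPM (SD, n = 3). In PRC1, the complex that ubiquitinates histone H2A, 2 of 20 subunits were lower, 1 was higher and the median was 0.01. The chromobox readers CBX2 and CBX6 fell by 0.54 and 0.37 (edgeR adjusted p = 0.00579 and adjusted p = 0.00986). None of the 5 genes that remove these marks was called by edgeR or by DESeq2 with the block, 0 had an unadjusted p under 0.05 with edgeR, and KDM6A, an H3K27 demethylase, came nearest at -0.21 (edgeR adjusted p = 0.164).

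Among 10 tested partners and cofactors of DNA methylation, 4 were called lower and 1 higher (all genes, 9.37% and 11.5%), with a median of -0.03. CDCA7, the activator of HELLS, averaged 32.1 ± 17.9 CPM with DMSO and 17.8 ± 7.11 CPM with SAL (SD, n = 3). It fell by 0.78 (standard error 0.18, edgeR adjusted p = 0.00640), with -0.97, -0.13 and -1.14 in the pairs, and its relative CDCA7L fell by 0.57. KIAA0101 (now PCLAF), the PCNA-associated factor that helps recruit UHRF1 and DNMT1, fell by 0.62 (edgeR adjusted p = 0.00392). MAT2A, which makes the methyl donor S-adenosylmethionine, fell by 0.40 (edgeR adjusted p = 0.00511). ZBTB24, a transcription factor of CDCA7 whose loss, like that of DNMT3B, CDCA7 or HELLS, causes ICF syndrome with centromeric DNA hypomethylation, went the other way. It rose from 57.8 ± 12.1 to 121 ± 25.4 CPM (SD, n = 3), by 1.06 on the log2 scale (standard error 0.10, edgeR adjusted p = 2.59e-06), with 1.23, 1.09 and 0.85 in the pairs and no overlap of the groups. ZBTB24 was the only companion gene called higher without replicate 3. The 4 ICF genes therefore divided, DNMT3B, CDCA7 and HELLS lower and ZBTB24 higher.

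None of the 6 DNA demethylation genes, the TET enzymes among them, was called by edgeR or by DESeq2 with the block, 0 had an unadjusted p under 0.05 with edgeR, and the median was -0.10. SMUG1, a uracil glycosylase, had the smallest p at -0.32 (edgeR adjusted p = 0.189). Of the 6 methyl-CpG binding proteins, ZBTB4 alone was called, higher by 0.43 (edgeR adjusted p = 0.0202). Among 10 other H3K9 writers and HP1 proteins, 3 were lower and 1 higher (all genes, 9.37% and 11.5%). SUV39H2, the paralog of SUV39H1, fell by 0.51 (edgeR adjusted p = 0.00349). HP1 alpha (CBX5), which binds the H3K9 mark, fell by 0.44 and the corepressor TRIM28 by 0.30 (edgeR adjusted p = 0.00332 and adjusted p = 0.0302). EHMT1, which writes the lower methylation states of H3K9, rose by 0.45 (edgeR adjusted p = 0.00284). Of 7 H3K9 demethylases, KDM4B was called, higher by 0.50 (edgeR adjusted p = 0.00129).

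Of 8 genes known as repressed by EZH2 in cancer cells, 4 had enough counts to test. DAB2IP, CDH1 and CDKN2A were at 0.23, -0.08 and -0.35 and were not called. Of 16 germline genes that promoter methylation silences in somatic cells, 8 could be tested. In DMSO these 8 averaged from 3.03 (MAGEA10) to 93.0 CPM (MAGEA6). The filter on low counts selected them for having counts, so their levels do not speak for the 16. The rest had too few counts to test. BRDT fell by 0.88 (edgeR adjusted p = 0.0152) and MAGEA1 rose by 0.47 (edgeR adjusted p = 0.0108), and the other 6 were not called. DAZL, MAGEB2 and MAGEC1 had 0 counts in all 6 libraries. Some MAGE genes are near-identical copies, so the counts of those are uncertain. DNA and histone methylation themselves were not measured.

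The genes nearest to EZH2 in their pattern over the 6 libraries, by root-mean-square difference of centred log2 CPM among 10300 genes with a mean of at least 10 CPM, were LYRM7, ZBTB11, GXYLT1, MUT and NHLRC2, at 0.040 to 0.056. Nearest to UHRF1 were HLF, SLC7A2, ROBO1, NCR3LG1 and PER3, at 0.11 to 0.14. Each of the 10 was itself called lower (all genes, 9.37%), with log2 fold changes between -0.68 and -0.32. Their fall under SAL follows from the choice, since likeness was measured over these same libraries. These patterns contain the differences between replicates as well as the treatment.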

How the data were processed

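RNA-seq was analysed in 6 libraries of C4-2 cells, 3 treated with DMSO and 3 with 1 nM R1881 for 72 h, grouped and numbered by their labels. Read trimming, alignment of read 1 to hg19 (TopHat2 2.1.0) and unstranded counting over gencode v19 exons (HTSeq 0.11.2) were done by the authors, who deposited raw counts for each gene symbol. The counting tallies (24.0% to 48.3% of reads on no gene) were left out of library sizes.

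For this report, 523 rRNA symbols were removed, which left 6931042 to 9776990 counts per library. edgeR's filterByExpr was applied and counts were TMM-normalized. SAL was compared with DMSO by edgeR 4.0.16 (quasi-likelihood test, robust, R 4.3.3) with the replicate number as a block. The block was used since the study used a paired test and same-numbered libraries deviated together. That paired test was run with DESeq2, which is an alternative here and called 2 of the 10 genes lower. A Benjamini-Hochberg adjusted p under 0.05 over 16835 genes made a call. A standard error is the size of the log2 fold change over the root of its F statistic. Levels are CPM on TMM-scaled library sizes, and pair changes use a prior count of 2. Count ratios were compared with exact permutation tests (SciPy 1.17.1). The labels do not say whether replicates were separate cultures. The paper reports that the RNA-seq of each condition was repeated independently, without describing the cultures behind each repeat. With the block, the p-values measure the spread of the changes among the same-numbered pairs. Without it, and in the permutation tests over libraries, they measure the spread between the samples. Part of either spread may be technical.

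Gene positions, lengths and GC content come from GENCODE v44 lifted to GRCh37, and promoters from RefSeq. With older symbols matched through RefSeq synonyms, 84.0% of the genes tested had a GC value. The fit was tested on simulated data. The alternatives were DESeq2 1.42.0 with the block, its size factors in edgeR, no block, no low-count filter, a minimum of 10 counts per library, retention of the rRNA genes, each replicate left out and an adjusted p under 0.01. For ratios they were a pseudocount of 0.5, sign flips of pairs and each replicate left out. A correction for GC content and length with the block was chosen after seeing the data. The members and lists were chosen with earlier results of these data known. Of each companion list, up to 3 genes called in each direction with the smallest adjusted p are named, and where none was called the 1 with the smallest p. For EZH2 and UHRF1, the 5 nearest genes are named. Any other gene was named with its values known. Some genes that this rule names are not reported here.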

Additional observations from a re-analysis of the deposited data

How the results depend on the processing

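The log2 fold changes of the 10 genes kept their sign under every alternative run, except EZH1, which was 0.01 without replicate 3 against -0.02. No member was called higher in any of them. The number of members called lower, 7, was 2 with DESeq2 and the replicate block, 0 with no replicate block and 1 at an adjusted p under 0.01, and ranged from 2 to 6 when 1 replicate was left out (6 without replicate 1, 4 without replicate 2, 2 without replicate 3). It was 7 with DESeq2 size factors, without the low-count filter, with a minimum of 10 counts per library, with rRNA genes retained and with the correction for GC content and length, which was chosen after seeing the data. Over all genes, 1577 lower and 1931 higher calls became 3 and 18 with no replicate block and 876 and 1234 at an adjusted p under 0.01. DESeq2 with the block gave 950 lower calls. Leaving out 1 replicate gave between 483 and 1955 lower and between 750 and 2443 higher calls, the lowest without replicate 3. In the companion lists, 11 lower and 10 higher calls became 0 and 0 with no replicate block, where 0 and 1 had an unadjusted p under 0.05. DESeq2 with the block gave 3 higher calls, and leaving out 1 replicate gave 0 to 15 lower and 1 to 11 higher calls. Of the 11 ratios, 3 turned in sign when 1 replicate was left out. Without replicate 2, EZH2 to SUZ12 went from -0.09 to 0.03 and SUV39H1 to EZH2 from 0.04 to -0.24, and without replicate 3, EZH2 to EED went from -0.02 to 0.05. The other 8 kept their sign. Pairing by the replicate block (sign flips) changes only the p of a ratio, not its value, such as -0.36 for EZH2 to EZH1. The cause of the lost calls was not tested, other than that leaving out a replicate leaves 4 libraries. Counts of 32 to 120 for DNMT3B and 34 to 87 for SUV39H1 per library limit how small a change could be detected.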
